A study of Rattus norvegicus with 6 samples.

Results

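Heat shock proteins are chaperones that keep other proteins folded, and cochaperones steer them. The set described here holds 10 genes: Hspa1a, Hspa8 and Hsph1 of the HSP70 and HSP110 families, their J-domain partner Dnajb1, the cytosolic HSP90 genes Hsp90aa1 and Hsp90ab1, the mitochondrial chaperonin genes Hspd1 and Hspe1, and the small heat shock protein genes Hspb1 and Hspb8. All probe sets listed with 1 of these symbols were taken. This gave 12 probe sets for 8 genes, of 31042 probe sets and 14217 named genes in the series. Hspa8 and Hsp90aa1 have no probe set of their own and are covered by 3 probe sets that are also listed with another gene. A further such probe set is listed with both Hspa1a and Hspa1b. These 4 shared probe sets are given as values and are not counted among the 8 genes.

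RNA came from primary rat Schwann cells, the glia of peripheral nerve, labelled as sciatic nerve, on 6 oligonucleotide arrays. All cells, controls included, carried RafER, in which Raf kinase is joined to an estrogen receptor domain and is switched on by tamoxifen. After 24 h in minimal medium the 3 control cultures received ethanol vehicle and the 3 treated cultures received tamoxifen for 24 h, in 3 experiments that the design text calls independent. Although the source labels name animals as treated, the treatment was taken to be in culture, as the series design has it. No arrays of cells lacking the fusion were analysed here, so effects of tamoxifen itself and of Raf cannot be told apart. The age of the rats was not stated.

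In the textbook scheme, the HSP70 proteins bind unfolded stretches of proteins and release them on ATP binding. J-domain proteins deliver the client and exchange factors such as the HSP110 proteins eject the nucleotide. HSP90 takes over clients such as kinases, Raf among them, with a set of cochaperones. In mitochondria, HSP60 (Hspd1) and its lid HSP10 (Hspe1) fold imported proteins in a closed chamber. The transcription factor HSF1 induces many of these genes under heat or protein damage, through heat shock elements in their promoters, while Hspa8 and Hsp90ab1 are the forms that cells make without stress.

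After tamoxifen the heat shock genes split. Transcripts of the mitochondrial chaperonin Hspe1 and Hspd1 and of the HSP110 gene Hsph1 rose by 0.94 to 1.53 log2 units, whereas that of the inducible HSP70 gene Hspa1a fell by 2.26, those of Hspb1 and Dnajb1 fell by less, and Hspb8 and Hsp90ab1 did not pass the test. By the brightest probe set of each gene, 3 of 8 genes rose and 3 fell (limma, adjusted p under 0.05). Among the falls, that of Hspa1a kept its call in all 17 alternative ways of processing. Hspb1, which was dim, lost its call in 5 of them and Dnajb1 in 10. Over all 14217 genes, 13.9% were called higher and 17.3% lower, 31.2% in all, against 75% of these 8. For 6 of the 8 genes the groups were fully separated, 3 with all tamoxifen values above and 3 with all below, against 49.1% of all genes (23.7% above, 25.4% below). Of the 12 probe sets, 4 were higher, 3 lower and 5 not called, where 24.4% of all probe sets were called (11.5% higher, 12.9% lower). The groups were fully separated for 8 of the 12, 5 of them upward, against 42.4% of all probe sets, 22.2% upward. The median change of the 8 genes was 0.06 and that of all genes 0.01. The members were chosen with earlier results of these data known. These comparisons with all genes and all probe sets are therefore no test of the set. In such cultures, fewer cells of a type and less RNA per cell cannot be told apart.

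**Figure D1:**
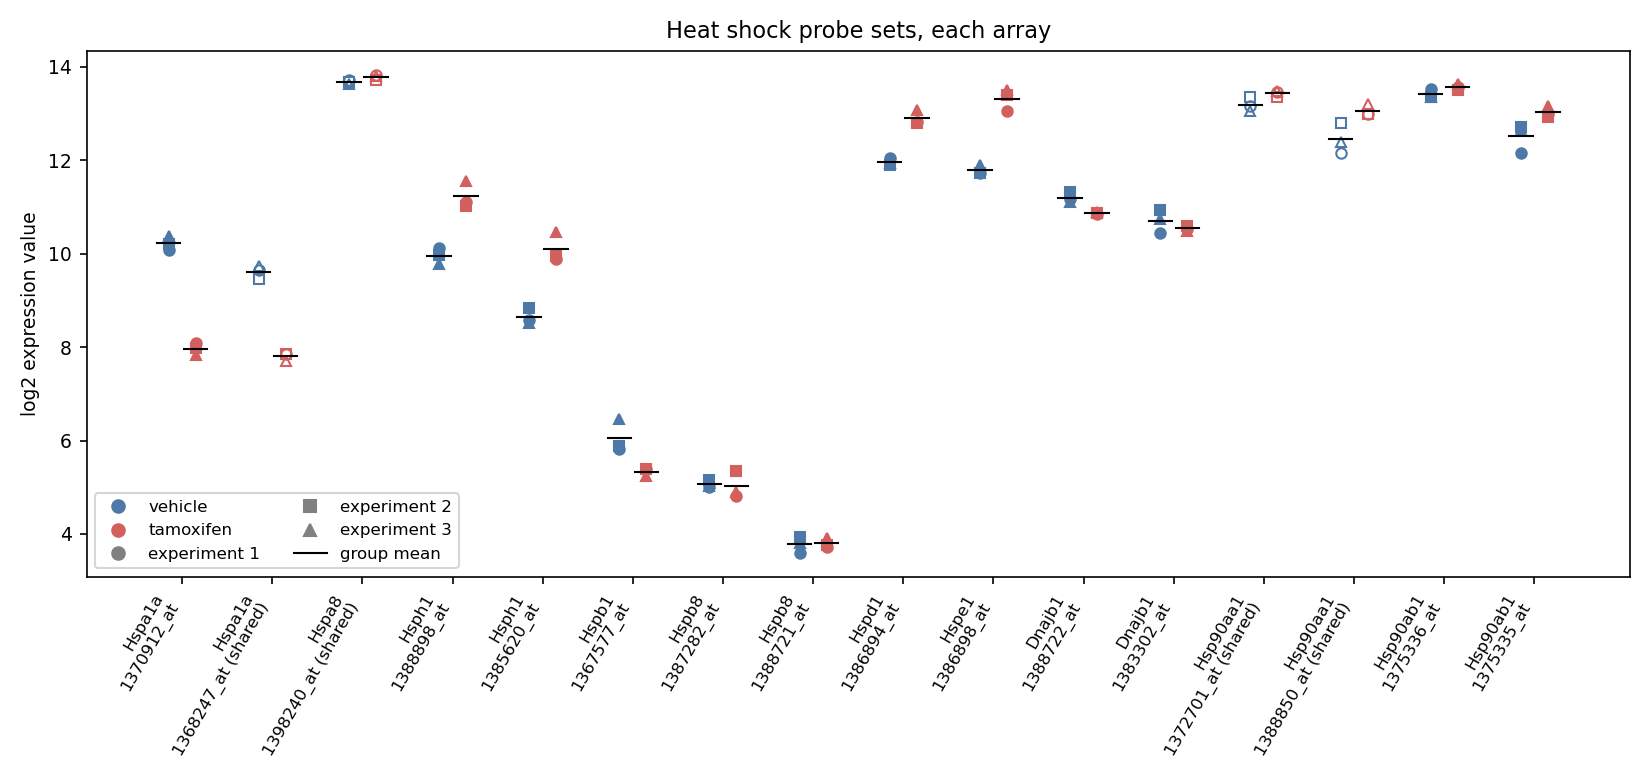
Log2 expression value (vertical axis) of every heat shock probe set on each array, vehicle in blue and tamoxifen in red, with a marker shape for each experiment, open markers for probe sets shared with another gene and bars for group means. For Hspa1a probe set 1370912_at the tamoxifen values lie below 8.1 and the vehicle values above 10, while for Hsph1, Hspd1 and Hspe1 all tamoxifen values lie above all vehicle values.

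Some values of the arrays as a whole bear on these results. Genes taken as a readout of the Raf pathway were higher after tamoxifen. Dusp6, an ERK phosphatase that ERK itself induces, rose by 4.53 ± 0.08 (SE) log2 units, Egr1 by 4.51 ± 0.33 and Spry4 by 3.19 ± 0.16. The activity of Raf and ERK is not measured by these arrays. Of 10 Schwann cell markers 7 were measured, and 4 of these were lower: Pmp22 (-2.18), Mbp (-1.96), Ngfr (-1.53) and S100b (-0.76). Their mean log2 value was 10.98 to 11.24 on the vehicle and 9.92 to 10.13 on the tamoxifen arrays. Fibroblast markers (10 of 10 measured) had means of 7.64 to 7.72 and 7.52 to 7.62, with 2 higher and 3 lower. Macrophage markers (7 measured) had means of 4.75 to 4.78 and 4.77 to 4.88, with none called. Endothelial markers (5 of 6) went from 4.85 to 4.89 in vehicle to 5.12 to 5.28 in tamoxifen, with Ramp2 called higher, and smooth muscle and pericyte markers (5 of 5) from 5.40 to 5.47 to 5.48 to 5.61, with none called. Dcn, Fap, Lum, Csf1r, Ptprc, Adgre1, Tek, Pecam1, Kdr, Rgs5 and Cnn1 had means under 5 log2 units. The part of cell mixture in the results was not tested. On vehicle array 1 the 5' probe sets of 3 control transcripts were dimmer than on the others, with a mean 3' minus 5' difference of 0.84, against 0.16 to 0.27 on the other 5.

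Promoter sequences are shown first for the chaperonin pair and Hsph1, which were picked because they rose and hold matches to a heat shock element. Whether the element has a part in any change was not tested. The 250 bases before the start of transcription were read for 9 of the 10 genes from RefSeq (build GRCr8); Hsp90aa1 was not in that table. The capitals mark matches to the heat shock element units GAANNTTC and TTCNNGAA, which read the same on both strands, and to the longer 3-unit element, in which a GAANNTTC and a TTCNNGAA overlap and share their middle unit, in either order; the orders are each other's reverse complement. Hspd1 lies at chr9:64084038-64084287, minus strand, and Hspe1 at chr9:64084077-64084326, plus strand.
Hspd1: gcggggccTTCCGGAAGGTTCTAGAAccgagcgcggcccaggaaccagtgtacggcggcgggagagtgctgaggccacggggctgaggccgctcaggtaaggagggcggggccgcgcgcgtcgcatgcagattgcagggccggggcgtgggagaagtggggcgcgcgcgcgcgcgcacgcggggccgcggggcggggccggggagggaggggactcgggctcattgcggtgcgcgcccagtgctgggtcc
Hspe1: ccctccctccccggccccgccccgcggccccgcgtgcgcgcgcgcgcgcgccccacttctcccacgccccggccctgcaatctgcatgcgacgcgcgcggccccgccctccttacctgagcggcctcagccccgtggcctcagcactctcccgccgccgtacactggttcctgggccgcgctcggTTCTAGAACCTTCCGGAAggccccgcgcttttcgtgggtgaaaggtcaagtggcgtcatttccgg

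These are not separate promoters. Hspd1 and Hspe1 are transcribed away from each other with 290 bases between their starts, and 211 bases of the windows are the same DNA read on opposite strands. The run of 3-unit matches lies at positions -242 to -225 before Hspd1 and, as its reverse complement, at -65 to -48 before Hspe1. It therefore counts as 1 element next to 2 genes.

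The promoter of Hsph1 (chr12:10427118-10427367, plus strand) holds a 3-unit match at -36 to -24 and a shorter match at -105 to -98. That of Hspa8 (chr8:50080264-50080513, plus strand), the constitutive HSP70 gene whose shared probe set did not pass, is shown for contrast and holds 3-unit matches at -213 to -201 and at -55 to -43. The window of Hspa1a (chr20:3859506-3859755, plus strand), the gene that fell most, is shown because it has none of these matches, which says only that the letters are not in these bases. The window rests on the RefSeq start, and whether that start is used in these cells was not tested.
Hsph1: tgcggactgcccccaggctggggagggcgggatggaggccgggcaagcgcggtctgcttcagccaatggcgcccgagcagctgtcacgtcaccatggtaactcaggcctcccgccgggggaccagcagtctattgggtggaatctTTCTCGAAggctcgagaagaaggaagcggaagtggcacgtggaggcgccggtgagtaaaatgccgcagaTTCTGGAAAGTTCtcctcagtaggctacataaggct
Hspa8: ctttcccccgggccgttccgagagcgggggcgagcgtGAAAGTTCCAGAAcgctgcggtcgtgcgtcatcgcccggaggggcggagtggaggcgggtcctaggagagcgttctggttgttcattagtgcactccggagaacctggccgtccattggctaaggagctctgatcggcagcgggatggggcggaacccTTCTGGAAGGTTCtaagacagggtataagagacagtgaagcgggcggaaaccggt
Hspa1a: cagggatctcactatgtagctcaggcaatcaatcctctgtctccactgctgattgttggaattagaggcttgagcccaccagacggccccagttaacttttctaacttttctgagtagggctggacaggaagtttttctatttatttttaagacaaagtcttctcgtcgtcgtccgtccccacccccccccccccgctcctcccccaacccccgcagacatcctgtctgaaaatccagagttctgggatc

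A 3-unit match was found before 4 of the 9 genes, namely Hspa8, Hsph1, Hspd1 and Hspe1, the last 2 sharing it, and before 0.663% of 33469 promoters of the same length. Either shorter unit was found before 7 of the 9 genes and before 13.5% of all promoters. The 7 are Hspa8, Hsph1, Hspb1, Hspb8, Hspd1, Hspe1 and Dnajb1, of which Hspb1, Hspb8 and Dnajb1 hold only shorter matches (for Hspb1 GAAGTTTC at -129 to -122 and GAACCTTC at -109 to -102, for Hspb8 GAAGTTTC at -23 to -16, for Dnajb1 GAAGGTTC at -11 to -4). The CAAT box letters CCAAT, on either strand, were before 4 of the 9 genes (Hspa8, Hsph1, Dnajb1 and Hsp90ab1) and 34.0% of all promoters, and TATAAA before 0 of the 9 and 12.9%. Genes with the 3-unit match were not alike in their change: Hsph1, Hspd1 and Hspe1 rose and the shared Hspa8 probe set showed 0.10. Among the 107 other chaperone and heat shock genes measured, 87 were in the promoter table and 1 had a 3-unit match, the collagen chaperone gene Serpinh1, which fell by 0.49 ± 0.09 (adjusted p = 0.0107) and is named here after its values were seen.

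**Figure D2:**
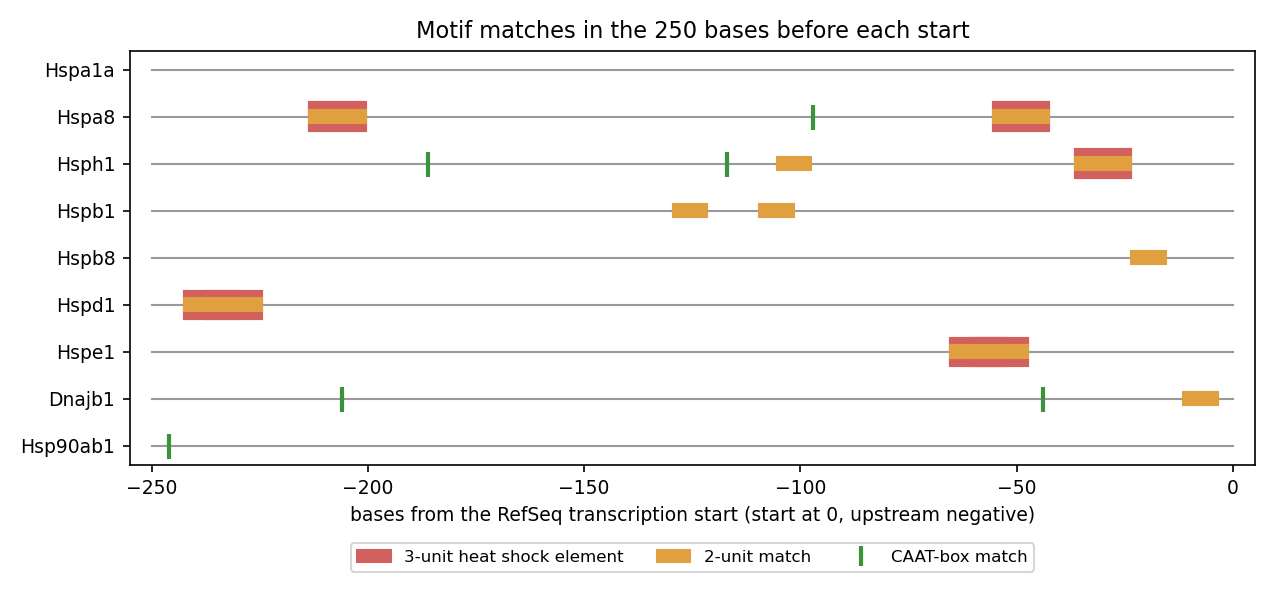
Positions of motif matches in the 250 bases before the RefSeq transcription start of 9 heat shock genes (horizontal axis, bases from the start). Red boxes are 3-unit heat shock elements, orange boxes are shorter matches and green ticks are CAAT-box letters. Hspa8, Hsph1, Hspd1 and Hspe1 carry red boxes, with Hspd1 and Hspe1 sharing theirs, and Hspa1a carries no match in these bases.

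Among the HSP70 genes the inducible form fell. Hspa1a encodes the HSP70 protein that is low in unstressed cells and strongly induced by heat. Its log2 values (probe set 1370912_at) were 10.08, 10.22 and 10.38 in vehicle and 8.09, 7.99 and 7.83 in tamoxifen. Every tamoxifen array was more than 1 log2 unit below every vehicle array. The mean went from 10.23 ± 0.15 to 7.97 ± 0.13 (SD, n = 3 arrays per group), which is 4.78-fold lower (difference -2.26 ± 0.11 SE, limma adjusted p = 0.000145). Within the 3 experiments the difference was -1.996, -2.227 and -2.550. Of the 14217 genes, 116 had a more negative change. The probe set listed with both Hspa1a and Hspa1b (1368247_at), whose target accession is an Hspa1a transcript in RefSeq, had 9.66, 9.45 and 9.74 in vehicle and 7.86, 7.86 and 7.71 in tamoxifen. It was also lower (-1.81 ± 0.11, adjusted p = 0.000244), and its signal cannot be divided between the listed copies.

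Hspa8 encodes HSC70, the HSP70 protein that all cells make for routine folding and transport. Its probe set, 1398240_at, is also listed with Haus8l2, although its target accession is an Hspa8 transcript in RefSeq. The values were 13.72, 13.68 and 13.64 in vehicle and 13.84, 13.72 and 13.80 in tamoxifen, all near the top of the scale, where the highest value of any probe set was 14.58. The groups overlapped, with a difference of 0.10 ± 0.08 (adjusted p = 0.421) and a 95% interval of -0.09 to 0.29. Within arrays, the log2 value of Hspa1a minus that of the Hspa8 probe set was -3.64, -3.46 and -3.27 in vehicle and -5.75, -5.73 and -5.97 in tamoxifen. The change between groups was -2.36, and the groups did not overlap (exact two-sided permutation test, p = 0.1, the smallest that 3 against 3 arrays can give; 0.133 adjusted over the 4 gene pairs compared).

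Hsph1, an HSP110 protein, is a nucleotide exchange factor of the HSP70 proteins and helps them pull apart aggregates. Its brighter probe set (1388898_at) had 10.11, 9.98 and 9.78 in vehicle and 11.11, 11.03 and 11.56 in tamoxifen. All tamoxifen values lay above all vehicle values, and the mean was 2.42-fold higher (1.27 ± 0.17, adjusted p = 0.00284). The dimmer probe set (1385620_at) gave 8.58, 8.85 and 8.51 in vehicle and 9.89, 9.94 and 10.48 in tamoxifen, a rise of 1.46 ± 0.18 (adjusted p = 0.00250). In both probe sets the tamoxifen array of experiment 3 was the highest, with differences within experiments of 0.99, 1.05 and 1.78 for the brighter one.

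Dnajb1 encodes HSP40, the J-domain protein that loads clients onto HSP70 and is itself heat-inducible. Its brighter probe set (1388722_at) had 11.18, 11.31 and 11.10 in vehicle and 10.86, 10.88 and 10.89 in tamoxifen. The values did not overlap, but the change was small (-0.32 ± 0.09, adjusted p = 0.0394). This call did not hold when experiments were blocked (adjusted p = 0.0635), nor when vehicle array 1 (0.0674), vehicle array 2 (0.112), tamoxifen array 1 (0.101), tamoxifen array 2 (0.1065) or tamoxifen array 3 (0.0967) was left out. The other probe set (1383302_at) had 10.44, 10.94 and 10.75 in vehicle and 10.54, 10.60 and 10.49 in tamoxifen, which overlap (-0.17 ± 0.14, adjusted p = 0.441).

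**Figure D3:**
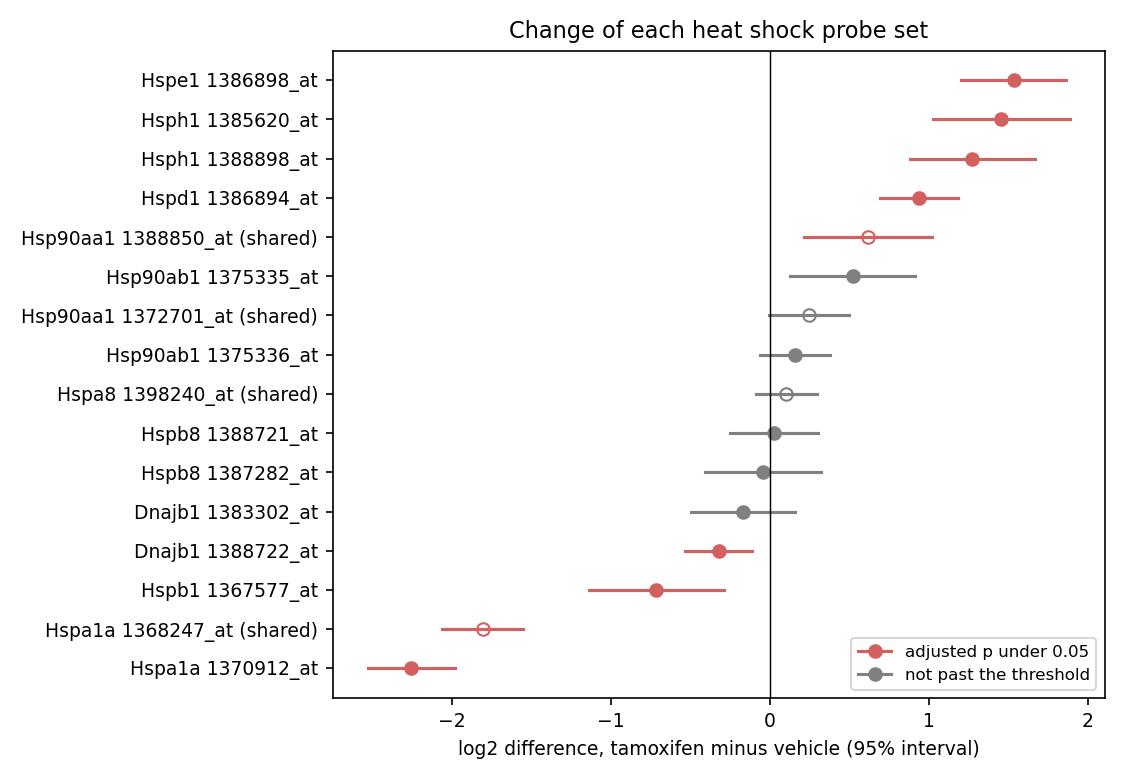
Log2 difference between tamoxifen and vehicle (horizontal axis) for every heat shock probe set, points with 95% intervals from the limma fit, red where the adjusted p was under 0.05 and open where the probe set is shared with another gene. The order runs from Hspa1a at -2.26 to Hspe1 at 1.53.

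The mitochondrial chaperonin genes rose together. Hspe1, the HSP10 lid, had log2 values (1386898_at) of 11.72, 11.74 and 11.91 in vehicle and 13.05, 13.40 and 13.52 in tamoxifen. The lowest tamoxifen value was more than 1 log2 unit above the highest vehicle value. The mean was 2.90-fold higher (1.53 ± 0.14, adjusted p = 0.000931), the largest rise among the 8 genes.

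Hspd1, the HSP60 barrel (1386894_at), had 12.04, 11.91 and 11.94 in vehicle and 12.83, 12.80 and 13.07 in tamoxifen. These groups did not overlap either, and the mean was 1.92-fold higher (0.94 ± 0.10, adjusted p = 0.00173). Within arrays, Hspd1 minus Hspe1 was 0.32, 0.17 and 0.03 in vehicle and -0.22, -0.60 and -0.45 in tamoxifen. That difference changed by -0.60 (exact two-sided permutation test, p = 0.1, the smallest possible, and 0.133 over the 4 pairs). Differences within experiments were 0.79, 0.90 and 1.13 for Hspd1 and 1.33, 1.67 and 1.61 for Hspe1.

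The HSP90 genes gave small differences that varied between probe sets. For both genes the brighter probe set, near the top of the scale (highest value 14.58), gave the smaller difference. Whether signal level has a part in this was not tested. Hsp90ab1 encodes the constitutive HSP90 beta. Its brighter probe set (1375336_at) had 13.54, 13.36 and 13.35 in vehicle and 13.58, 13.50 and 13.64 in tamoxifen. The groups overlapped (0.16 ± 0.09, adjusted p = 0.281, 95% interval -0.06 to 0.38). Its dimmer probe set (1375335_at) had 12.15, 12.72 and 12.66 in vehicle and 12.99, 12.94 and 13.17 in tamoxifen. All tamoxifen values were higher, but the difference of 0.52 ± 0.17 did not pass (adjusted p = 0.0649) and passed when experiments were blocked (0.0488). The lowest value was that of vehicle array 1, whose 5' control signal was weak. With the 3' minus 5' difference in the model the change was 0.32 (adjusted p = 0.0964), and without that array it was 0.34 (adjusted p = 0.0715).

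Hsp90aa1, the stress-inducible HSP90 alpha, was seen only by probe sets also listed with the pseudogene Hsp90aa1-ps17. The brighter (1372701_at) had 13.16, 13.36 and 13.06 in vehicle and 13.47, 13.36 and 13.49 in tamoxifen, a difference of 0.25 ± 0.10 that did not pass (adjusted p = 0.143). The dimmer (1388850_at) had 12.16, 12.79 and 12.39 in vehicle and 13.00, 12.99 and 13.20 in tamoxifen, and was higher (0.62 ± 0.17, adjusted p = 0.0394). Vehicle array 1 was again the lowest. No call remained when vehicle array 1 (adjusted p = 0.0713), vehicle array 3 (0.101), tamoxifen array 1 (0.0840), tamoxifen array 2 (0.0910) or tamoxifen array 3 (0.124) was dropped, or with the 3' minus 5' difference in the model (0.0760). Hsp90aa1 minus Hsp90ab1, by the brighter probe sets, was -0.37, 0.00 and -0.29 within vehicle arrays and -0.11, -0.14 and -0.15 within tamoxifen arrays, which overlap (change 0.09, exact two-sided permutation p = 0.4).

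The small heat shock proteins hold unfolding proteins in a soluble state without ATP. Hspb1, or HSP27, also binds actin filaments and is a target of stress kinases. Its log2 values (1367577_at) were low, at 5.82, 5.88 and 6.45 in vehicle and 5.39, 5.39 and 5.23 in tamoxifen. The groups did not overlap, with vehicle array 3 above the rest, and the mean was 1.64-fold lower (-0.71 ± 0.18, adjusted p = 0.0278). It did not pass when tamoxifen array 1 (adjusted p = 0.0677), tamoxifen array 2 (0.0753) or tamoxifen array 3 (0.0924) was dropped, nor with no moderation of variances (0.107). No detection calls were used here, so values this low can be background.

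Hspb8, or HSP22, works with the exchange factor Bag3 in sending damaged proteins to autophagy. Its brighter probe set (1387282_at) had 5.01, 5.16 and 5.03 in vehicle and 4.82, 5.36 and 4.89 in tamoxifen, which overlap (-0.04 ± 0.15, adjusted p = 0.877, 95% interval -0.41 to 0.32). The other probe set (1388721_at) lay between 3.60 and 3.94 on all 6 arrays and had a difference of 0.02 (adjusted p = 0.908). Hspb1 minus Hspb8 was 0.81, 0.72 and 1.42 within vehicle arrays and 0.56, 0.04 and 0.34 within tamoxifen arrays, a change of -0.67 (exact two-sided permutation p = 0.1, the smallest possible, and 0.133 over the 4 pairs). With both probe sets this dim and not shown to be above background, it is no measured ratio of the transcripts.

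**Figure D4:**
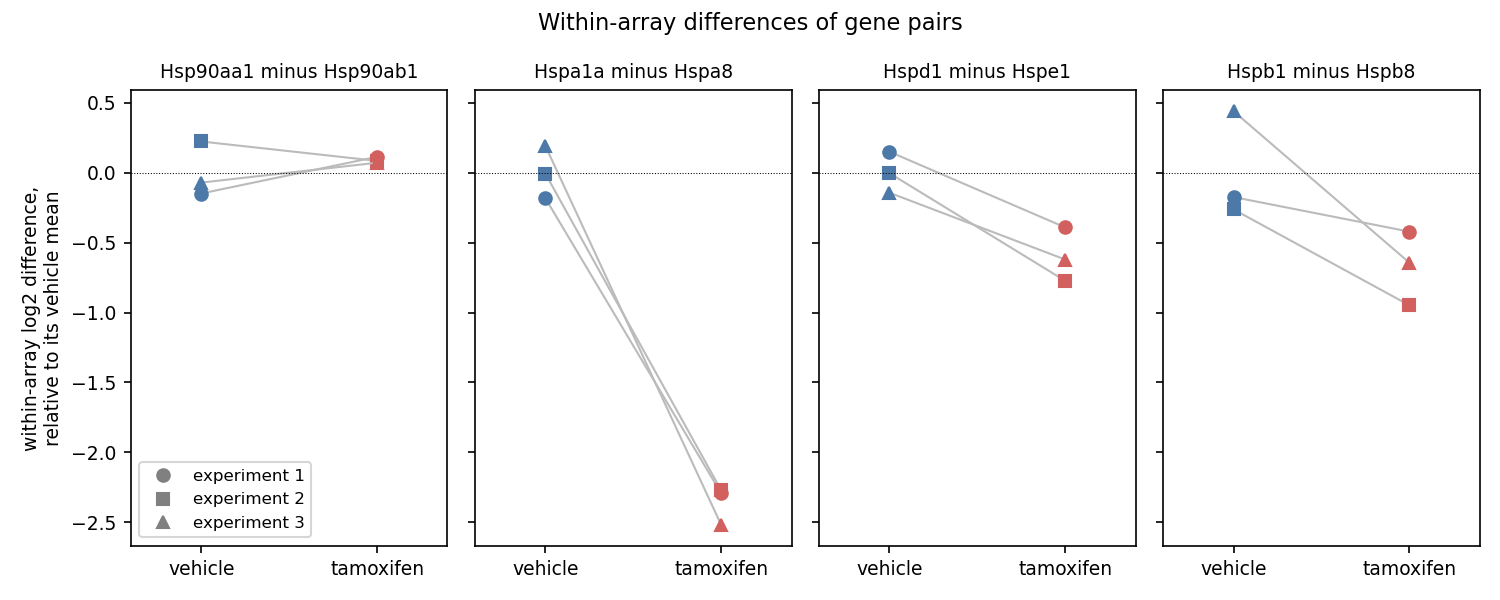
Within-array log2 difference between the genes of 4 related pairs (vertical axis, with the vehicle mean of each pair set to 0), for vehicle in blue and tamoxifen in red, lines joining arrays of the same experiment. Relative to Hspa8, Hspa1a fell by 2.36, and Hspd1 minus Hspe1 changed by -0.60, while the values of the HSP90 pair overlap between groups. Shared probe sets stand for Hspa8 and Hsp90aa1.

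The partners of these chaperones were read from 9 lists, which overlap. Of 114 listed genes 107 were measured, and 35 of these (32.7%) rose and 13 (12.1%) fell, with a median of 0.18, against 13.9% and 17.3% of all genes. The lists, too, were chosen with earlier results of these data known, so this comparison is no test of them. The 35 and 13 became 20 and 7 with no moderation of the variances, and 1 and 4 when a fold above 1.5 was required by the test. Unless said otherwise, genes described as changed passed at an adjusted p under 0.05.

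The cytosolic chaperonin TRiC, a ring that folds actin and tubulin, and prefoldin, which hands it its clients, had the highest share of calls among the 9 lists. Of 13 measured genes 11 (84.6%) rose and none fell, with a median of 0.57, against 13.9% higher and 17.3% lower over all genes. The ring subunit genes Cct7 and Tcp1 rose by 0.94 ± 0.12 and 0.88 ± 0.09, and the prefoldin gene Pfdn4 by 1.06 ± 0.16. Dropping any 1 array left 9 to 11 rises, and without tamoxifen array 2 there was 1 fall. When a fold above 1.5 was required, 0 passed.

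Of 17 measured HSP90 cochaperones and other HSP90 proteins, 6 (35.3%) rose and none fell (median 0.36), against 13.9% and 17.3% of all genes. Chordc1, a heat-inducible HSP90 binding protein, rose by 0.94 ± 0.10, the immunophilin gene Fkbp4 by 0.82 ± 0.18 and the cyclophilin gene Ppid by 0.77 ± 0.12. Fkbp4 did not pass when vehicle array 2 (adjusted p = 0.0558) or vehicle array 3 (0.0557) was dropped.

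Of 13 exchange factors and regulators of HSP70, 6 (46.2%) rose and 1 (7.69%) fell (median 0.34), against 13.9% and 17.3% of all genes. Bag2, which inhibits the ubiquitin ligase of the HSP70 machine, rose by 1.05 ± 0.18, the mitochondrial exchange factor gene Grpel2 by 0.67 ± 0.13 and St13, which stabilises client-bound HSP70, by 0.66 ± 0.09 (0.42 by its dimmer probe set). The 6 became 3 on leaving out vehicle array 2, vehicle array 3, tamoxifen array 2 or tamoxifen array 3.

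Among the other HSP70 and HSP110 genes, 2 of 11 rose and 2 fell (median 0.11). This is 18.2% each way, near the 13.9% higher and 17.3% lower over all genes. Hspa2, an HSP70 gene best known from the testis, had 8.05, 7.86 and 8.38 in vehicle and 5.16, 5.17 and 4.75 in tamoxifen. It fell by 3.07 ± 0.17 (adjusted p = 0.000215), with -3.47 by its other probe set. Its tamoxifen values lie in the low range where signal can be background, so the size of this fall is uncertain. Hspa12a, a distant HSP70 relative, fell by 1.35 ± 0.27, while the mitochondrial HSP70 gene Hspa9 rose by 1.03 ± 0.16, with rises of 0.98 to 1.37 by its other 3 probe sets. The 2 rises became 1 on leaving out vehicle array 3, tamoxifen array 1 or tamoxifen array 3.

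Of 27 other J-domain genes, 4 rose and 5 fell (median 0.03). Those shares, 14.8% and 18.5%, are near the 13.9% higher and 17.3% lower over all genes. Dnajb2, a J-domain protein with ubiquitin-binding motifs, fell by 2.00 ± 0.20 in its brighter probe set and did not pass in the dimmer one (-0.21, adjusted p = 0.353). The ribosome-associated Dnajc2 rose by 1.16 ± 0.19, with 0.30 (adjusted p = 0.119) by its dimmer probe set, and Dnajc21, which acts in ribosome assembly, rose by 1.00 ± 0.19. The 5 falls became 1 without vehicle array 2, 3 without tamoxifen array 2 and 2 without tamoxifen array 3.

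Of 16 mitochondrial chaperones and quality-control proteases, 6 rose and 3 fell (median 0.20). As shares these are 37.5% and 18.8%, against 13.9% higher and 17.3% lower over all genes. The share of falls is thus near that over all genes. Hspa9 is given above. Dnajc19 and Dnajc15, J-domain partners of the import motor, went in opposite directions: Dnajc19 fell by 0.99 ± 0.21 and Dnajc15 rose by 0.85 ± 0.21. Dnajc19 did not pass without vehicle array 2 (adjusted p = 0.0512). Dnajc15 did not pass when any 1 of the vehicle arrays (0.0602 to 0.0674), tamoxifen array 2 (0.0518) or tamoxifen array 3 (0.0827) was dropped.

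Of 9 other small heat shock proteins, 2 fell and 1 rose (median 0.08). As shares these are 22.2% and 11.1%, near the 17.3% lower and 13.9% higher over all genes. Cryab, alpha B-crystallin, an abundant small heat shock protein of Schwann cells, had 13.04, 13.17 and 13.26 in vehicle and 10.73, 10.91 and 10.19 in tamoxifen. All tamoxifen values lay more than 2 log2 units below the vehicle values, and the mean was 5.85-fold lower (-2.55 ± 0.19, adjusted p = 0.000523). Hspb6 fell by 1.25 ± 0.10. The rise of Hspb7 was small (0.29 ± 0.08) and did not pass when experiments were blocked (adjusted p = 0.0730) or any 1 array was dropped (0.0712 to 0.1235).

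Of 5 measured heat shock factors and regulators 1 (20%) passed the test, upward (median 0.19), near the 13.9% of all genes called higher. Hsf1, the main one, had a difference of 0.19 ± 0.23 (adjusted p = 0.619), which passed with the 3' minus 5' difference in the model (0.50, adjusted p = 0.0378) and ranged from 0.0004 without vehicle array 2 to 0.45 without vehicle array 1 (adjusted p = 0.0593), and Hsf2 one of 0.19 ± 0.08 (adjusted p = 0.153). Hsf4 was at -0.33 ± 0.10 (adjusted p = 0.0522, passing at 0.0457 without vehicle array 3 and at 0.0335 to 0.0409 with other scalings between arrays), and the HSF1 inhibitor gene Hsbp1 at -0.22 ± 0.11 (adjusted p = 0.202). The gene of the HSF2-binding protein, Hsf2bp, rose by 0.71 ± 0.11 from a low level of 5.05 ± 0.15. These are transcript levels, and the activity of HSF1 was not measured.

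Other genes known to be induced by heat did not move as 1 group: of 12, 5 (41.7%) rose and 3 (25%) fell (median 0.40). Over all genes 13.9% were called higher and 17.3% lower. Hmox1, heme oxygenase, which oxidative stress also induces, rose by 1.67 ± 0.15, and Cacybp, a protein of ubiquitin ligase complexes, by 0.96 ± 0.12 (1.14 by its dimmer probe set). Chordc1 and Fkbp4, given above, are on this list too, and Cryab had its largest fall.

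**Figure D5:**
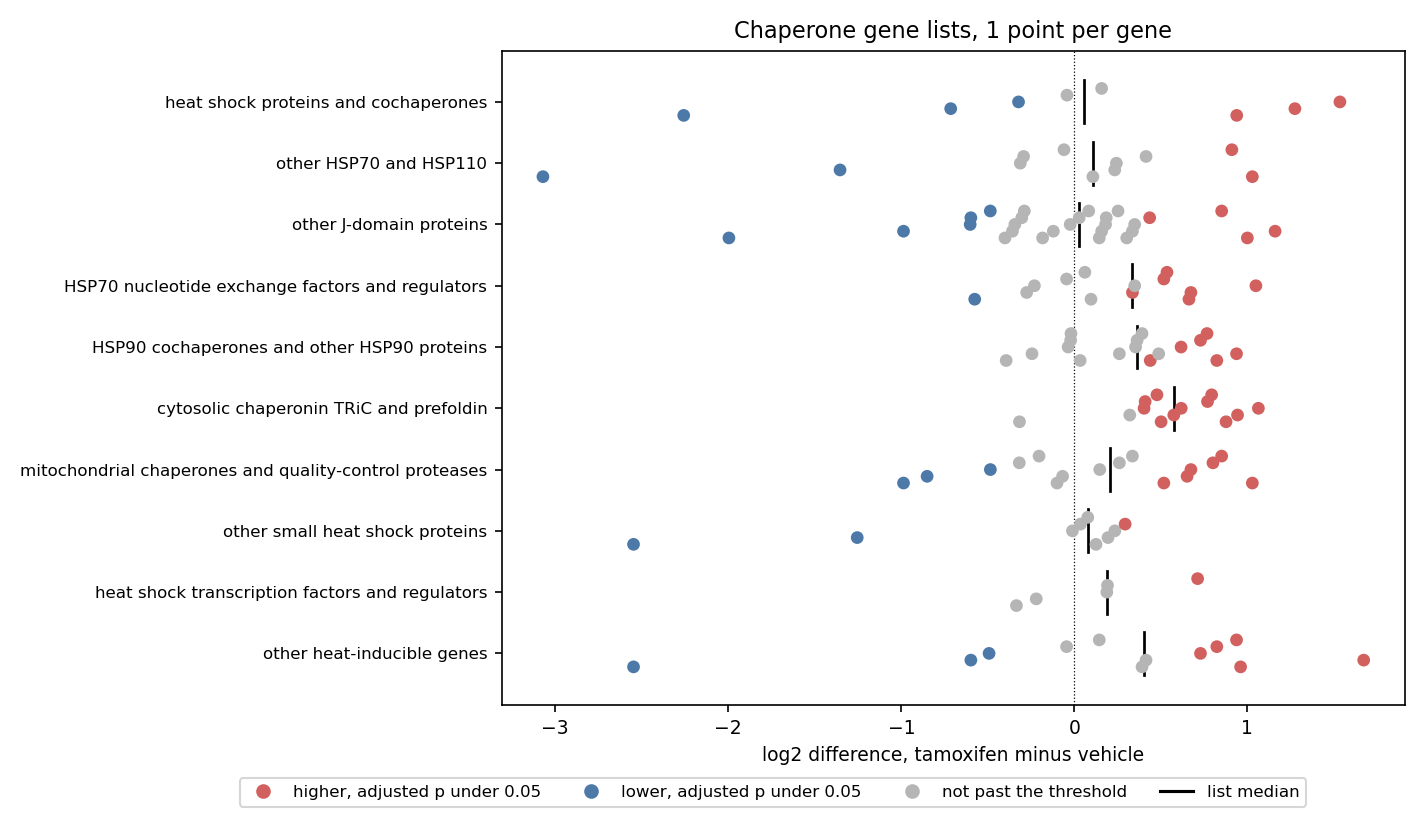
Log2 difference between tamoxifen and vehicle (horizontal axis) for each measured gene of the heat shock set and of 9 further chaperone lists, by the brightest probe set, red for genes called higher, blue for genes called lower and grey for the rest, with a black bar at the list median. TRiC and prefoldin lie mostly to the right (11 of 13 higher), while the HSP70, J-domain and small heat shock lists reach to both sides, with Hspa2 at -3.07 and Cryab at -2.55. Over all genes 13.9% were called higher and 17.3% lower.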

How the data were processed

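The authors deposited log2 expression values per probe set from Affymetrix rat arrays of total RNA. The submitters' processing notes list RMA, a method that subtracts background, equalises the arrays and combines the probes of a set. Of 31099 probe sets, 57 controls were left out. Each gene is shown by its probe set of greatest mean over the 6 arrays. The 436 probe sets that list several symbols were named for no gene. Symbols came from GEO's platform annotation; 20764 Entrez identifiers matched RefSeq and 0 symbols changed.

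Tamoxifen was compared with vehicle in limma 3.58.1 (R 4.3.3; lmFit, eBayes), two-sided, with no covariate. P-values were adjusted by Benjamini-Hochberg over all 31042 probe sets, with a threshold of 0.05. Gene pairs were compared with an exact permutation test that exchanged arrays freely between groups. Neither the fit nor this test used the experiment numbers, and blocking on experiment was not applied to the gene pairs. The number of arrays limits the precision, and p-values measure only the spread between these samples. The procedure was tested in 10 simulations with 200 changed probe sets each. It called 3.4% of changes of 0.5 log2 units, 67% of those of 1 and 93% of those of 2. Among the calls 5.96% were false. Far fewer probe sets were changed there than the 7578 called in the data, so these rates may not carry over.

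After subtraction of group means, arrays with the same experiment number correlated at 0.26, 0.20 and 0.28, so the numbers, which the design text ties to separate experiments, were taken to pair the samples. Blocking on them was an alternative, as were leaving out each array, other scalings, removal of dim probe sets, other variance models, array weights, other probe set rules and a minimum fold of 1.5. The members and lists were chosen with earlier results of these data known. Named genes are the members, up to 3 called genes of largest change per list, the heat shock factors, Dusp6, Egr1 and Spry4. A planned search of protein ends was not run.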

Additional observations from a re-analysis of the deposited data

How the results depend on the processing

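The 3 rises among the 8 heat shock genes stayed at 3 with each array left out, and ranged from 2 (minimum fold of 1.5) to 4 (mean of a gene's probe sets) elsewhere. The 3 falls became 1 with no moderation and 1 with the minimum fold, and ranged from 1 to 3 over the left-out arrays. With the experiment as a replicate block 3 rose and 2 fell, Dnajb1 losing its call. Under the block, among 46 named probe sets, Dnajb1 and Hspb7 lost their calls and the dimmer Hsp90ab1 probe set gained one; it changed no other named call. Hspa1a, Hsph1 and Hspe1 kept direction and call in all 17 alternatives that gave them a value. Hspd1 lost its call with the minimum fold only (adjusted p = 0.0949).

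For the other chaperone lists together, 35 rises and 13 falls became 20 and 7 with no moderation and 1 and 4 with the minimum fold, and ranged from 26 to 31 and from 9 to 14 over the left-out arrays. Of all probe sets, 3574 higher and 4004 lower became 1957 and 1715 with no moderation, and ranged from 2427 to 3424 and from 2668 to 3771 over the left-out arrays. The cause of these changes was not tested. With the 4 gene pairs, ranges over left-out arrays were -2.45 to -2.27 for Hspa1a minus Hspa8, -0.70 to -0.51 for Hspd1 minus Hspe1, -0.80 to -0.45 for Hspb1 minus Hspb8 and 0.01 to 0.20 for the HSP90 pair. With no moderation, 11 of the 46 lost their calls: Hspb1, Dnajb1, Hsp90aa1 (shared), Bag2, Grpel2, Fkbp4, Dnajc19, Dnajc15, Hspa12a, Dnajc2 and Dnajc21. With the minimum fold 22 did. None of the 46 named probe sets changed direction with a call under any of these alternatives. Low signal limits what can be said of Hspb1 and Hspb8.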

Other observations

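The size of the change differed between experiments. Of the 6 called heat shock genes, 4 had their largest absolute difference in experiment 3 (Hspa1a, Hsph1, Hspb1 and Hspd1) and 2 in experiment 2 (Hspe1 and Dnajb1). For Hspb1 the differences were -0.43, -0.49 and -1.22. Among the 26 other called genes named in the text by rule, the largest was in experiment 1 for 3, in experiment 2 for 5 and in experiment 3 for 18. For Cryab the differences were -2.31, -2.26 and -3.08, whereas for Hmox1 they were 1.96, 1.68 and 1.38. Of all 4433 called genes, 2612 (58.9%) had their largest difference in experiment 3, 1135 in experiment 1 and 686 in experiment 2. The 4 of 6 heat shock genes are near the 58.9% and show nothing particular to the set. The difference between experiments was not tested.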
